A study of Caenorhabditis elegans with 4 samples.

Results

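The genes described here are the 230 pseudogenes of Caenorhabditis elegans that the series table places in its Spermatogenic class, chosen as the rows whose biotype is pseudogene and whose class column includes Spermatogenic. They are 230 of 47115 rows and 10.8% of the 2126 pseudogenes in the table, and no value measured in these libraries was used to choose them. The class was drawn by the study from earlier sequencing of gonads that make only sperm or only oocytes. RNA depleted of ribosomal RNA was sequenced from whole synchronized adults, in 2 libraries of an eggd-1 null mutant and in 2 libraries of a control whose genotype is given as pgl-1::RFP, a red fluorescent tag on a P granule protein. The eggd-1 allele used in the study is a deletion of the whole open reading frame. Whether the eggd-1 animals carried that tag is not given in the sample labels. The libraries held 18707358 and 17603513 counts in eggd-1 and 20223368 and 30812591 counts in the control. Each library came from a large pool of animals that contained germ line and soma, so more cells of a type and more RNA per cell cannot be told apart.

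EGGD-1 is a LOTUS domain protein that anchors germ granules to germ cell nuclei, and these granules house the Argonaute proteins and amplifying enzymes of the small RNA pathways. Hermaphrodites make sperm first, as larvae, and then switch to oocytes, and the adult stores its own sperm. Pseudogenes are copies of genes that have lost an intact reading frame, often members of large families. A transcribed pseudogene gives RNA that can be counted, and its transcript can carry early stop codons, which the nonsense-mediated decay pathway recognises.

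The labels were checked on the targeted gene, listed as mip-1 (WBGene00008005), which had 6 and 3 counts in eggd-1 and 2074 and 3177 counts in the control (log2 fold change -8.71, SE 0.50, DESeq2 adjusted p = 7.27e-64). Lists of marker genes were examined because other cell types and stages could contribute RNA. Of 25 protein-coding spermatogenesis genes found in the table, 24 were tested and 16 were higher in eggd-1, and their summed normalized count was 8402 and 8014 in eggd-1 against 3943 and 4514 in the control. 23 of these 25 belong to the same Spermatogenic class. Of 12 oocyte genes, 4 were higher. Among 10 moulting genes of the larval cuticle cycle, 8 were higher, with sums of 7908 and 6763 in eggd-1 and 3665 and 4798 in the control. Of 9 early embryonic genes, 7 were tested and 2 were lower, with sums of 168 and 159 in eggd-1 and 337 and 359 in the control. Genes of male sensory neurons were at low counts, with sums of 61.9 and 62.4 over 8 genes in eggd-1 and 44.5 and 37.9 in the control. Of the 3 tested, 1 was called higher, the channel gene asic-2, and edgeR called 2 of the 8 higher. cwp-4 had 26.5 and 15.9 normalized counts in eggd-1 and 6.07 and 7.86 in the control, and did not pass (log2 fold change 1.60, DESeq2 adjusted p = 0.103). Estimates were below 0 for lov-1, pkd-2, cwp-1, cwp-2 and cwp-3, none with an adjusted p-value, and the median over the list was -0.95. lov-1 and pkd-2, which define these neurons, had at most 8 counts in any library. The part of sperm, moulting or embryo number in the results below was not tested.

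Most Spermatogenic pseudogenes were expressed at low levels. After rounding, 224 of the 230 had at least 1 count, and 113 averaged at least 10 normalized counts. Their mean level over the 4 libraries had a median of 7.07 normalized counts per kb of exon, with quartiles of 3.32 and 20.4 and a highest value of 3786. Summed over all members, the normalized count was 13556 and 12908 in eggd-1 and 9614 and 9730 in the control. At least 10 counts were found for 141 and 127 members in the eggd-1 libraries and for 74 and 92 in the control libraries, although the deepest library was a control. No count was found for 11 and 14 members in eggd-1 and for 33 and 26 in the control, where a count of 0 allows up to 3 counts, a limit that covers counting error only.

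Whether these pseudogenes changed in the mutant was asked with one DESeq2 fit over the whole table. Of the 224 members with a count, 151 received an adjusted p-value, and 61 of them were called higher in eggd-1, which is 40.4% where 18.6% of all tested rows were called higher. Only 4 members, 2.65%, were called lower, where the share over all rows was 20.4%. A change of at least 4-fold was called for 40 members, 26.5%, all of them higher, beside 5.67% of all rows, and 0 members were at least 4-fold lower beside 0.763% of all rows. At an unadjusted p under 0.05 the count of members at least 4-fold lower was also 0, and it was 0 with the edgeR quasi-likelihood test. Both eggd-1 libraries lay above both control libraries for 115 of the 151 (38.5% over all tested rows) and below them for 18 (38.9% over all tested rows), and all 61 and all 4 called members had this order. The counts of calls depended on every library, since 7 members were called higher without eggd-1 replicate 1, 16 without eggd-1 replicate 2, 30 without control replicate 1 and 22 without control replicate 2. With whole-number members alone 34 were called higher, and with edgeR 106.

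The size of the change was described by the median log2 fold change, which was 1.55 over the 224 members with a count and 1.17 over the 113 with a mean of at least 10, beside -0.02 and -0.01 over all rows. Members at 3 counts or fewer in each library of 1 group have fitted folds that are not bounds. With these placed at the value that 3 counts give, and the 26 members at that level in both groups left out, the median over 198 members was 1.17. When each member with a mean of at least 10 was centred on its own mean log2 level, the library medians were 0.70 and 0.50 in eggd-1 and -0.50 and -0.56 in the control. The distance between the groups was larger than the spread between libraries of 1 group (pooled SD 0.10).

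**Figure D1:**
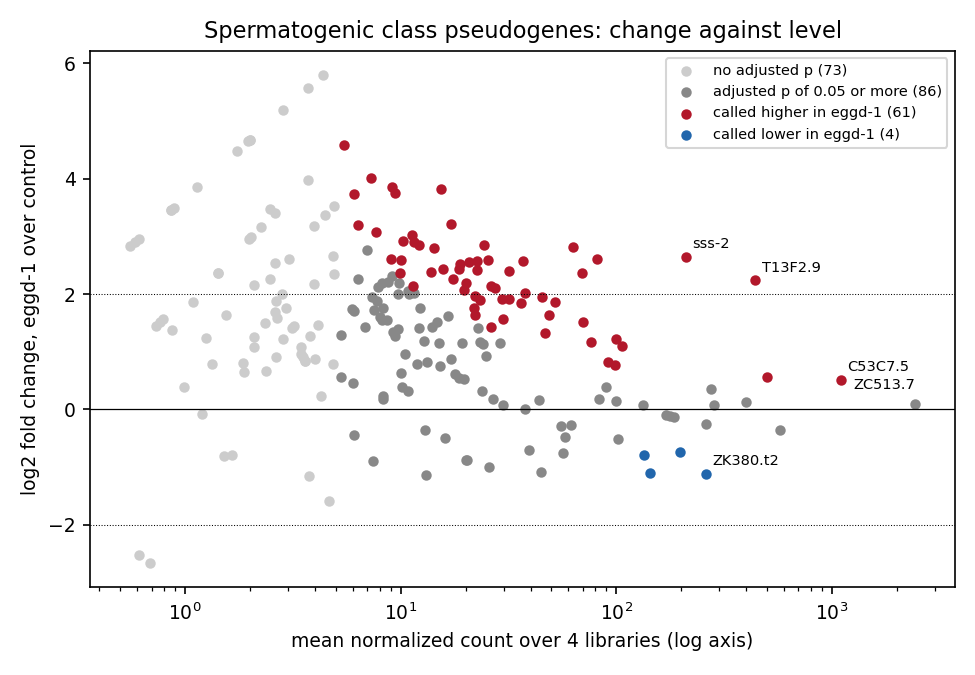
Log2 fold change of eggd-1 over control (vertical axis) against the mean normalized count over the 4 libraries (horizontal log axis) for the 224 Spermatogenic pseudogenes with a count, with dotted lines at 4-fold and colours for the DESeq2 call. The 61 members called higher in eggd-1 lie mainly between about 5 and 100 normalized counts, and the 4 called lower lie above 100.

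Protein-coding genes of the same class and pseudogenes outside it were set beside these members. Among 2154 tested Spermatogenic protein-coding genes, 986 (45.8%) were higher in eggd-1, 420 (19.5%) at least 4-fold, with a median log2 fold change of 1.09 over those with a count and 0.99 over those with a mean of at least 10. Pseudogenes outside the class gave 39 higher of 489 tested (7.98%) and 41 lower, with medians of -0.13 and -0.17. The Spermatogenic pseudogenes had a distribution of changes that lay nearer to that of protein-coding Spermatogenic genes than to that of other pseudogenes, given as a description without a test. The levels differed between these groups in another way. The median was 11.1 normalized counts per kb in eggd-1 and 3.06 in the control for Spermatogenic pseudogenes, 49.5 in eggd-1 and 20.0 in the control for Spermatogenic protein-coding genes, and 4.00 in eggd-1 and 3.81 in the control for other pseudogenes.

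**Figure D2:**
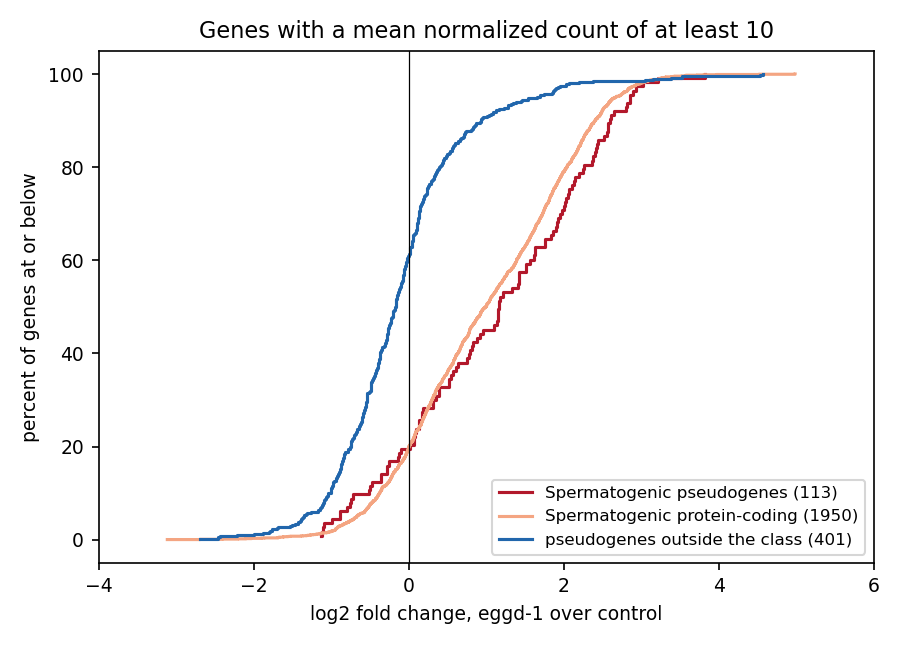
Cumulative percent of genes (vertical axis) at or below each log2 fold change of eggd-1 over control (horizontal axis), for genes averaging at least 10 normalized counts. The curve of 113 Spermatogenic pseudogenes (median 1.17) runs beside that of 1950 Spermatogenic protein-coding genes (median 0.99) and to the right of that of 401 pseudogenes outside the class (median -0.17).

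The share called changed with the level. All 73 members with a count but an overall mean under 5 normalized counts were left without an adjusted p-value by the independent filter of DESeq2. Their median log2 fold change was 1.70, and edgeR, which tested all 73, called 12 higher and 0 lower, with 0 lower at an unadjusted DESeq2 p under 0.05 as well. Between 5 and 20 normalized counts, 24 of 77 tested members were higher (31.2%) and all 24 by at least 4-fold. Protein-coding genes of the class at these counts had 144 higher of 534 tested, 123 of them at least 4-fold. With 2 libraries in each group, smaller changes seldom pass at such counts, so the size of the called changes is not informative. Between 20 and 100, 32 of 53 were higher (60.4%), 14 of them at least 4-fold, with a median log2 fold change of 1.43. At 100 or more, 5 of 21 were higher (23.8%) and 4 lower (19.0%), near the shares of 18.6% and 20.4% over all tested rows. The median there was 0.07. Protein-coding genes of the class showed a smaller median at that level as well, 0.33 over 811 genes, of which 341 were higher and 86 lower.

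The members with the highest mean counts were then described one by one. ZC513.7 (WBGene00023209, WBcel235 chromosome V, 8039469 to 8040387, minus strand) had the highest normalized count, 2497 and 2552 in eggd-1 and 2290 and 2445 in the control. The eggd-1 libraries were slightly above the control libraries, with a log2 fold change of 0.09 (SE 0.13, DESeq2 adjusted p = 0.609). C53C7.5 (chromosome X, 13042182 to 13046220) had 1304 and 1282 normalized counts in eggd-1 and 961 and 851 in the control, a log2 fold change of 0.51 (SE 0.15, DESeq2 adjusted p = 0.00204). F27B3.7 (chromosome III, 6559097 to 6563666) had 571 and 621 in eggd-1 and 409 and 394 in the control, a log2 fold change of 0.57 (SE 0.17, DESeq2 adjusted p = 0.00391). These 2 members rose by less than 2-fold, and their groups did not overlap. Neither call held in every subset of libraries. The DESeq2 adjusted p for C53C7.5 was 0.147 without eggd-1 replicate 1 and 0.109 without eggd-1 replicate 2. For F27B3.7 the DESeq2 adjusted p was 0.105 without eggd-1 replicate 1, 0.195 without eggd-1 replicate 2 and 0.0561 without control replicate 2.

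T13F2.9 (WBGene00011748, chromosome IV, 9768057 to 9768984, plus strand) had the clearest change among the high-count members. Its normalized count was 756 and 705 in eggd-1 and 163 and 146 in the control, with a log2 fold change of 2.25 (SE 0.19, DESeq2 adjusted p = 1.78e-30). Both eggd-1 libraries stood over 4-fold above either control library. T13F2.9 lies 902 bases from msp-79, which encodes a major sperm protein, the cytoskeletal protein that drives the crawling of nematode sperm, and which is on the other strand. The neighbour msp-79 had 519 and 359 counts in eggd-1 and 160 and 261 counts in the control (log2 fold change 1.54). Both genes carry fractional counts, which mark reads shared with other loci, so their values are not wholly their own.

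sss-2 (WBGene00006057, chromosome V, 14346059 to 14346967, plus strand) belongs by name to a small family of sperm-specific genes. It had 393 and 335 normalized counts in eggd-1 against 60.7 and 55.7 in the control. This was a log2 fold change of 2.65 (SE 0.25, DESeq2 adjusted p = 1.08e-23), and its counts were whole numbers in every library. Its protein-coding relative sss-1 had 996 and 910 normalized counts in eggd-1 and 202 and 193 in the control, a log2 fold change of 2.27 (SE 0.17, DESeq2 adjusted p = 1.88e-36). Pseudogene and intact gene of the sss name were thus both over 4-fold higher, and the difference between them was not tested. The intact gene sss-1 had fractional counts, so its value is not wholly its own. The calls of T13F2.9 and sss-2 held without any single library.

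A further 5 high-count members did not pass the test. R12C12.8 (chromosome II) had 500.4 and 504 normalized counts in eggd-1 and 647 and 637 in the control, and its log2 fold change of -0.35 (SE 0.16) had a DESeq2 adjusted p of 0.0733. This is the single member in the class of CSR-1 targets, genes whose small RNAs bind the Argonaute CSR-1. F07H5.4, F59A7.8 and Y67H2A.9 had log2 fold changes of 0.14, 0.08 and 0.35. Y54G2A.21 had 243 and 232 normalized counts in eggd-1 and 305 and 266 in the control, a log2 fold change of -0.26 (SE 0.21, DESeq2 adjusted p = 0.352). With ZC513.7, these make 6 of the 12 members with the highest counts without a DESeq2 call. R12C12.8 was called lower by edgeR (edgeR adjusted p = 0.0366), and over its alternatives the adjusted p from DESeq2 or edgeR ran from 0.0366 to 0.387.

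The 10 largest increases among called members with a mean of at least 20 were led by T08G3.7 and included sss-2, described above. H06I04.5 (chromosome III, 3052378 to 3057552) had 118 and 103 normalized counts in eggd-1 against 17.2 and 14.3 in the control, a log2 fold change of 2.82 (SE 0.43, DESeq2 adjusted p = 9.56e-10). F48F5.2 (chromosome V, 20440232 to 20446477) had 159 and 121 in eggd-1 against 23.3 and 22.9 in the control, a log2 fold change of 2.60 (SE 0.38, DESeq2 adjusted p = 1.56e-10). Y22D7AR.12 (chromosome III, 1716527 to 1722605) overlaps Y22D7AR.17 on the same strand, so its reads may not be wholly separable. Y22D7AR.12 had 71.8 and 53.8 in eggd-1 against 12.1 and 9.29 in the control, a log2 fold change of 2.57 (SE 0.54, DESeq2 adjusted p = 1.88e-05). All of these remained called without any single library, as did R06B10.1 among the other members, so that 6 members called higher held in every such subset with T13F2.9 and sss-2.

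The remaining 6 of the 10 had lower counts. T08G3.7 (chromosome V) had 38.7 and 46.5 normalized counts in eggd-1 and 6.07 and 5.72 in the control, a log2 fold change of 2.86 (SE 0.67, DESeq2 adjusted p = 1.42e-04). T20B6.2 had 46.4 and 41.6 in eggd-1 and 4.05 and 10.01 in the control (log2 fold change 2.60). B0524.4 had 34.2 and 42.8 in eggd-1 and 9.11 and 4.29 in the control (log2 fold change 2.57). In each of these members the lower eggd-1 library was above the higher control library by over 3-fold. F56H1.3 had 30.9 and 40.4 normalized counts in eggd-1 and 3.04 and 8.58 in the control (log2 fold change 2.56). Y69A2AR.14 had 41.98 and 34.2 in eggd-1 and 7.09 and 7.15 in the control (log2 fold change 2.42). T08G3.4, named from the same sequenced clone as T08G3.7, had 68.5 and 39.1 in eggd-1 and 7.09 and 12.9 in the control (log2 fold change 2.41). Each of the 6 lost its call without 1 or more libraries. The DESeq2 adjusted p without eggd-1 replicate 1 was 0.165 for T08G3.4, 0.133 for Y69A2AR.14, 0.0777 for T20B6.2, 0.0633 for F56H1.3 and 0.0532 for B0524.4. Without eggd-1 replicate 2 it was 0.148 for F56H1.3, 0.118 for B0524.4, 0.0574 for Y69A2AR.14 and 0.0569 for T08G3.7. It was 0.0834 for F56H1.3 without control replicate 1 and 0.0774 for B0524.4 without control replicate 2.

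**Figure D3:**
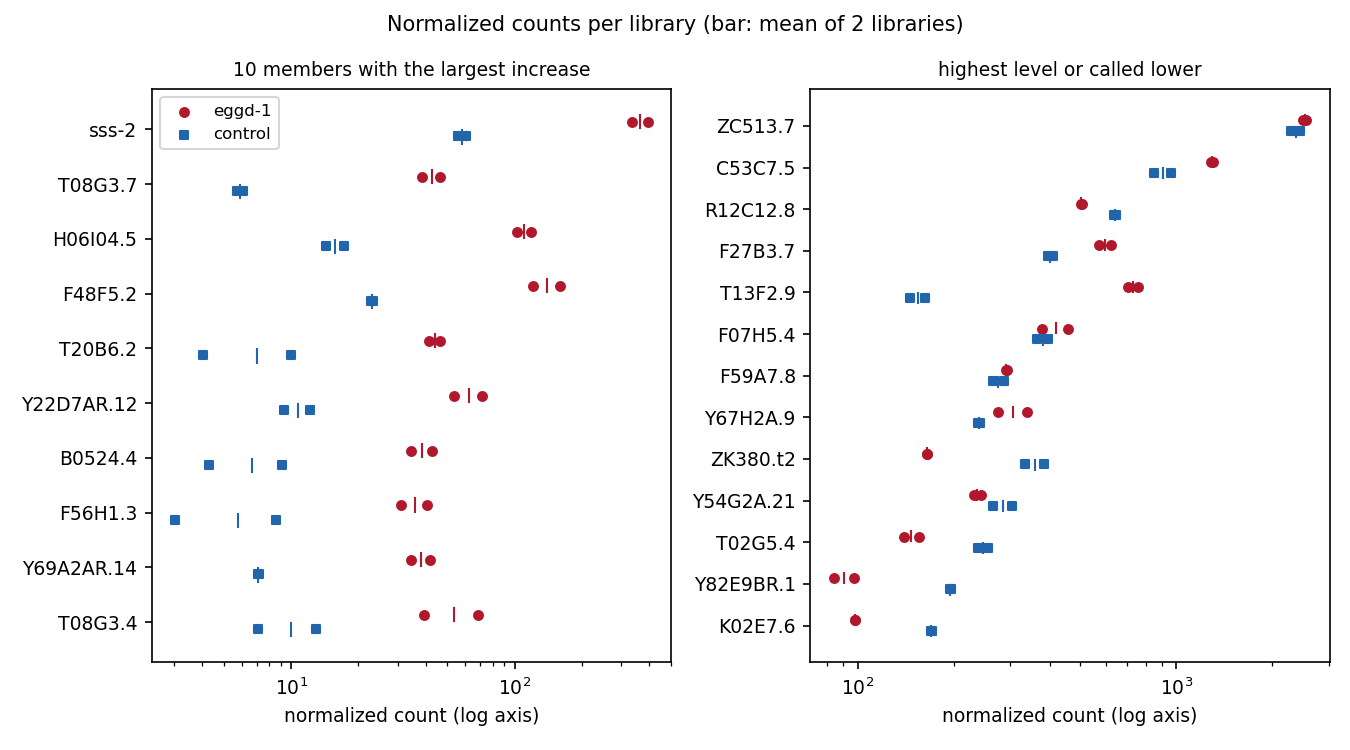
Normalized counts (horizontal log axes) of named Spermatogenic pseudogenes in each of 2 eggd-1 libraries (red circles) and 2 control libraries (blue squares), with a short bar at each mean. The left panel holds the 10 members with the largest increase, where every eggd-1 value lies above every control value, and the right panel the other high-count members and the 4 called lower.

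All 4 members called lower in eggd-1 had means above 100 and changed by little more than 2-fold or less. ZK380.t2 (WBGene00023401, chromosome X, 1643850 to 1643922, plus strand) is 73 bases long in 1 exon, and its sequence name has the form given to transfer RNA genes. It had 166 and 165 normalized counts in eggd-1 against 384 and 334 in the control, a log2 fold change of -1.12 (SE 0.22, DESeq2 adjusted p = 3.39e-06), and it was the one decrease that held without any single library. RNA this short was retained only as far as it passed the length selection of the library preparation. Y82E9BR.1 (chromosome III) had 97.2 and 84.4 in eggd-1 against 195 and 196 in the control, a log2 fold change of -1.11 (SE 0.27, DESeq2 adjusted p = 3.11e-04). K02E7.6 (chromosome II) had 98.3 and 97.9 in eggd-1 against 171 and 170.1 in the control, a log2 fold change of -0.80 (SE 0.28, DESeq2 adjusted p = 0.0126). T02G5.4 (chromosome II) had 156 and 139 in eggd-1 against 239 and 256 in the control, a log2 fold change of -0.75 (SE 0.24, DESeq2 adjusted p = 0.00654). The libraries of each genotype lay close together for all 4. The DESeq2 adjusted p of K02E7.6 was 0.170, 0.168, 0.133 and 0.125 without eggd-1 replicate 1, eggd-1 replicate 2, control replicate 1 and control replicate 2. That of T02G5.4 was 0.0965, 0.184, 0.0623 and 0.113 in the same order, and that of Y82E9BR.1 was 0.0586 without eggd-1 replicate 2.

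Pseudogenes that carry a family name show which kinds of gene the class holds. There were 42 such members, and 11 of the 30 that were tested were higher (36.7%), 8 of them at least 4-fold (26.7%). Over all tested rows these shares were 18.6% and 5.67%. Among tested members with a sequence name they were 41.3% and 26.4%. Among major sperm protein pseudogenes, msp-52 (chromosome IV, 5265592 to 5265921) had 80.6 and 66.1 normalized counts in eggd-1 and 22.3 and 25.01 in the control, a log2 fold change of 1.63 (SE 0.44, DESeq2 adjusted p = 0.00119). msp-71 had 43.1 and 33.0 in eggd-1 and 17.2 and 11.4 in the control, a log2 fold change of 1.43 (SE 0.60, DESeq2 adjusted p = 0.0437). msp-42 had 14.4 and 9.79 in eggd-1 and 2.02 and 5.72 in the control, a log2 fold change of 1.60 that did not pass (SE 1.07, DESeq2 adjusted p = 0.239). The median of these 3 was 1.60, beside 1.54 over 31 protein-coding msp genes, of which 28 of 30 tested were higher. All 3 pseudogenes have fractional counts, since the msp genes are nearly identical and share reads, so pseudogene and intact copies may not be fully separable. The call of msp-52 was lost without eggd-1 replicate 1 (DESeq2 adjusted p = 0.142), and that of msp-71 without any single library, with DESeq2 adjusted p-values of 0.413 and 0.206 without eggd-1 replicates 1 and 2 and 0.127 and 0.329 without control replicates 1 and 2.

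C-type lectin pseudogenes, named for a carbohydrate-binding domain, numbered 4. clec-152 had 37.6 and 24.5 normalized counts in eggd-1 and 3.04 and 3.57 in the control, a log2 fold change of 3.22 (SE 0.84, DESeq2 adjusted p = 6.21e-04). clec-236 had 27.6 and 25.7 in eggd-1 and 4.05 and 5.72 in the control, a log2 fold change of 2.43 (SE 0.80, DESeq2 adjusted p = 0.00809). The eggd-1 libraries were several times above the control in both. clec-154 and clec-155 had log2 fold changes of 1.88 and 1.42 and did not pass. The median over the 4 was 2.15, beside 0.08 over protein-coding clec genes of the whole table. Those genes are of any class, so the sets differ in class as well as in biotype. clec-236 lost its call without control replicate 1 (DESeq2 adjusted p = 0.113) and without control replicate 2 (DESeq2 adjusted p = 0.0725), and without eggd-1 replicate 1 neither lectin pseudogene received an adjusted p-value, nor did clec-236 without eggd-1 replicate 2.

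F-box pseudogenes of the fbxa family, whose intact relatives encode proteins with a motif of ubiquitin ligase adaptors, numbered 8. Of these, 5 were tested and 0 were called by DESeq2, where 18.6% of all tested rows were higher and 20.4% lower, so that few calls could arise among 5 genes. At an unadjusted p under 0.05 the count was also 0, and edgeR called 1 lower. fbxa-93 had 48.6 and 62.4 normalized counts in eggd-1 and 70.9 and 63.6 in the control, and fbxa-146 had 45.3 and 51.4 in eggd-1 and 63.8 and 70.0 in the control. Their log2 fold changes were -0.28 and -0.47. fbxa-121 had 38.7 and 36.7 in eggd-1 and 38.5 and 36.4 in the control, values that lay within 3 normalized counts of each other. Over the 8 the median was -0.13. Protein-coding fbxa genes of any class gave 6 higher and 16 lower of 115 tested.

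The other high-count named members differed among themselves. ferl-1, named for similarity to ferlins, overlaps F27C1.18 on the same strand, so its reads may not be wholly separable. ferl-1 had 101 and 68.5 normalized counts in eggd-1 and 118 and 122 in the control, a log2 fold change of -0.51 (SE 0.32, DESeq2 adjusted p = 0.210). It was called lower by edgeR (edgeR adjusted p = 0.0352), and its adjusted p from DESeq2 or edgeR ran from 0.0352 to 0.745 over the alternatives. The protein-coding ferlin fer-1, needed for the fusion of membranous organelles in sperm, had 223 and 242 in eggd-1 and 36.4 and 54.3 in the control, a log2 fold change of 2.34 (SE 0.30, DESeq2 adjusted p = 2.55e-13). The 2 ferlin genes thus had estimates of opposite sign, and the difference between them was not tested. Counts of fer-1 were fractional, so its value is not wholly its own. cyp-31A1, of the cytochrome P450 family, cars-2, named for a cysteinyl-tRNA synthetase, and enu-3.4 had log2 fold changes of -0.12, -0.10 and 0.07. rmd-4, named after regulators of microtubule dynamics, had 50.8 and 37.9 normalized counts in eggd-1 and 14.2 and 15.7 in the control, a log2 fold change of 1.57 (SE 0.56, DESeq2 adjusted p = 0.0163). The DESeq2 adjusted p of rmd-4 was 0.325 and 0.125 without eggd-1 replicates 1 and 2 and 0.152 and 0.125 without control replicates 1 and 2. With the replicate block it was 0.0556, the one call among the named members that the block removed.

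In 8 called members the control was near the limit of detection, with at most 3 counts in each control library. They were sdz-3, Y54G2A.24, T03F6.8, basl-2, T11G6.7, F01D4.3, wht-9 and C18H2.3, and all 8 were among the 40 called at least 4-fold higher. None of the 8 received a DESeq2 adjusted p-value in any fit without 1 library, so each of these calls needed all 4 libraries. Computed against 3 counts in each control library, their means were 4.02 to 6.72 times higher in eggd-1, and since counts above 0 allow more than 3 these folds are not strict bounds. sdz-3 had 11.05 and 9.79 normalized counts in eggd-1 and 1.01 and 0 in the control. basl-2 had 17.7 and 17.1 in eggd-1 and 2.02 and 0.715 in the control. T11G6.7 had 17.7 and 4.89 in eggd-1 and 1.01 and 0.715 in the control, so its level in eggd-1 came largely from 1 library.

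The class column of the table also lists targets of small RNA pathways, and the members were split by it. Small RNAs of the Mutator pathway are amplified in foci scaffolded by MUT-16, and the Argonautes WAGO-1 and HRDE-1 load such RNAs to silence genes, some of them after recognition by PRG-1 and its piRNAs. The MUT16 class held 39 members, and every member in the WAGO1, HRDE1 or PRG1 class was among them. Of these, 7 of 30 tested were higher, a share of 23.3% near the 18.6% over all tested rows. At least 4-fold increases were called for 4, and 2 members were lower, beside 20.4% lower over all tested rows, with a median log2 fold change of 0.14 over those with a count and -0.12 over those with a mean of at least 10. Outside the MUT16 class, 54 of 121 tested members were higher (44.6%), 36 of them at least 4-fold, and 2 were lower, with medians of 1.75 and 1.57. The 2 sets also differed in level. The median control mean was 26.3 normalized counts in the MUT16 class and 3.69 outside it, so class and level cannot be told apart with these values.

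The same split was made in the groups set beside the members. Spermatogenic protein-coding genes in any of these 4 small RNA classes had 56 higher and 14 lower of 234 tested and a median log2 fold change of 0.29, while those outside had 930 higher and 87 lower of 1920 and a median of 1.22. Pseudogenes outside the Spermatogenic class but within the MUT16 class had 3 higher and 19 lower of 138, with a median of -0.36. F48F5.2, R06B10.1, B0457.3 and T11G6.7 were the MUT16 members called at least 4-fold higher, and T02G5.4 and Y82E9BR.1 were those called lower. ZC513.7, the member with the highest count, is also in this class.

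**Figure D4:**
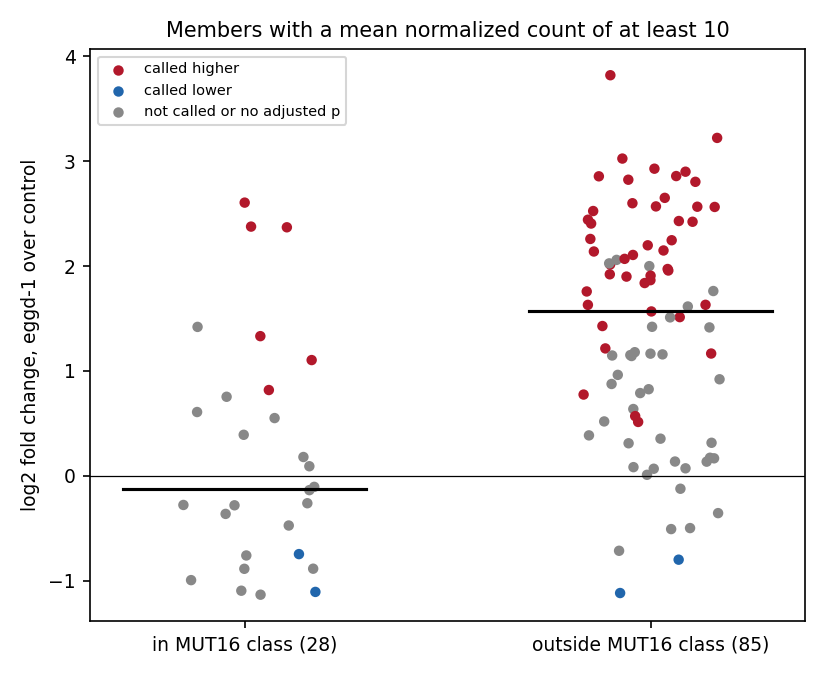
Log2 fold change of eggd-1 over control (vertical axis) for Spermatogenic pseudogenes averaging at least 10 normalized counts, 28 in the MUT16 class (left) and 85 outside it (right), with points coloured by the DESeq2 call, a horizontal line at each median and sideways scatter without meaning. The medians are -0.12 in the MUT16 class and 1.57 outside it.

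Members in the class of ALG-3 and ALG-4 targets were examined because these Argonautes act in spermatogenesis. There were 3. C17G10.3 had 54.1 and 39.1 normalized counts in eggd-1 and 14.2 and 10.7 in the control, a log2 fold change of 1.92 (SE 0.58, DESeq2 adjusted p = 0.00344). ZK507.3 had 37.6 and 29.4 in eggd-1 and 10.1 and 11.4 in the control, a log2 fold change of 1.63 (SE 0.64, DESeq2 adjusted p = 0.0314). kin-31, named for a protein kinase, had 22.1 and 13.5 in eggd-1 and 7.09 and 8.58 in the control, a log2 fold change of 1.18 that did not pass (SE 0.83, DESeq2 adjusted p = 0.265). All 3 had both eggd-1 libraries above both control libraries, an order found for 38.5% of all tested rows. Calls of higher were made for 2 of the 3, beside 18.6% of all tested rows, and 3 genes are too few to describe the class. Neither call held throughout. That of C17G10.3 had a DESeq2 adjusted p of 0.221 without eggd-1 replicate 1, 0.0624 without eggd-1 replicate 2 and 0.102 without control replicate 2. That of ZK507.3 had 0.363, 0.188, 0.206 and 0.169 as DESeq2 adjusted p without eggd-1 replicates 1 and 2 and control replicates 1 and 2. The class of WAGO-4 targets held 7 members, of which 6 were tested and 0 called by DESeq2. Over all tested rows 18.6% were higher and 20.4% lower, so that few calls could arise among 6 genes. In this class 1 member was lower at an unadjusted DESeq2 p under 0.05, and edgeR called 1 higher and 1 lower.

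Position in the genome was described next, with coordinates of WBcel235 from the Ensembl 115 annotation, in which 229 of the 230 are still pseudogenes and Y48G1BM.6 is protein-coding. Members had a median of 1194 exon bases, and 211 had more than 1 exon. Spermatogenic pseudogenes were spread over all chromosomes, with 30 on I, 49 on II, 46 on III, 46 on IV, 47 on V and 12 on X. As a share of all pseudogenes on the chromosome this was 25.7% on III and 16.04% on I, against 5.42% on V and 6.78% on X. Of protein-coding genes, the Spermatogenic class took 12.6% on III, 16.96% on I, 8.77% on V and 6.04% on X. Members called higher numbered 4 of 19 tested on I, 9 of 28 on II, 15 of 32 on III, 15 of 29 on IV, 15 of 35 on V and 3 of 8 on X. The share on I was 21.1%, near the 18.6% over all tested rows, and no test was made between chromosomes.

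Many members lie close to intact genes of the same class. Within 1 kb of a Spermatogenic protein-coding gene there were 76 members, of which 22 of 48 tested were higher (45.8%) with a median log2 fold change of 1.86 over those with a count. Of the other 154 members, 39 of 103 tested were higher (37.9%) and 4 lower, with a median of 1.34. The 76 formed 80 pairs with their neighbours, 41 on the same strand. Both genes were called higher in 16 pairs, the neighbour alone in 28, the pseudogene alone in 8 and neither in 28. Genes without an adjusted p-value could not be called, and only 48 of the 76 members were tested. Over all tested rows 18.6% were called higher, and 45.8% of tested Spermatogenic protein-coding genes. Whether the pairs differ from these shares was not tested. Reads were counted by strand, which separates transcription running on from a neighbour on the other strand as far as the libraries kept strand. How fully they did was not measured. Transcription that runs on along the same strand would not be separated from the pseudogene's count. Reads that align to several loci are split among them, whichever strand each locus is on.

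Examples were picked from these pairs after their values had been seen. clec-152 lies 818 bases from clec-153 on the same strand. The neighbour clec-153 had 51.8 and 55.4 counts in eggd-1 and 10.2 and 12.2 counts in the control (log2 fold change 2.75). Both clec genes carry fractional counts, so their values are not wholly their own. basl-2, named for similarity to aromatic amino acid decarboxylases, lies 472 bases from nep-5 of the neprilysin peptidase family, also on the same strand. nep-5 had 30 and 27 counts in eggd-1 and 2 and 10 counts in the control (log2 fold change 2.78). On the other strand, wht-9, of a family of ABC transporters, lies 110 bases from Y49E10.10, which had 120 and 87 counts in eggd-1 and 36 and 40 counts in the control (log2 fold change 1.89). Counts of wht-9 were fractional as well.

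**Figure D5:**
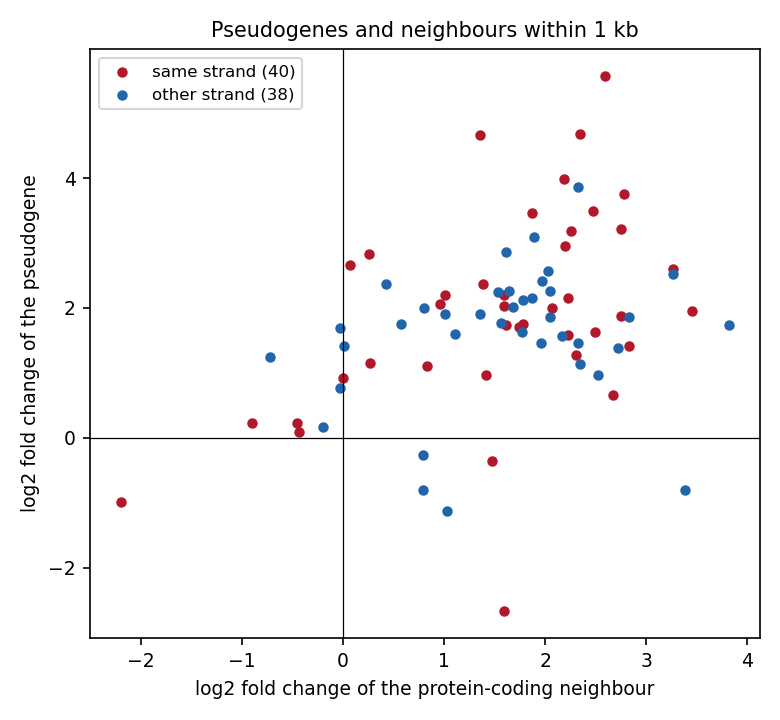
Log2 fold change of eggd-1 over control for 78 pairs of a Spermatogenic pseudogene (vertical axis) and a Spermatogenic protein-coding gene within 1 kb (horizontal axis), 40 on the same strand (red) and 38 on the other strand (blue). Most pairs on either strand lie where both values are above 0, and many of the pseudogenes plotted have few counts.

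Members also lie near each other, with 35 within 5 kb of another member. R06B10.1 and R06B10.2 are neighbours on chromosome III and the same strand, chosen as an example after their values were seen. R06B10.1 had 122 and 110.1 normalized counts in eggd-1 and 20.2 and 24.3 in the control, a log2 fold change of 2.37 (SE 0.39, DESeq2 adjusted p = 3.12e-08). R06B10.2 had 113 and 97.9 in eggd-1 and 43.5 and 50.02 in the control, a log2 fold change of 1.17 (SE 0.36, DESeq2 adjusted p = 0.00416). Per kb of exon, R06B10.1 had means of 28.8 in eggd-1 and 5.54 in the control, and R06B10.2 had 26.8 in eggd-1 and 11.9 in the control. R06B10.2 was called in none of the fits without 1 library, with DESeq2 adjusted p-values of 0.192, 0.0865, 0.0957 and 0.0527 without eggd-1 replicates 1 and 2 and control replicates 1 and 2.

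Reads shared between loci bear on many of these values. Fractional counts were found in 96 members, among them 27 of the 61 called higher, 15 of the 40 called at least 4-fold higher and 2 of the 4 called lower. Restricted to the 134 members with whole counts in every library, 34 of 79 tested were higher, 25 of them at least 4-fold, and 2 were lower. The median log2 fold change was 1.84 over those with a count and 1.16 over those with a mean of at least 10. The increase was also present in members with whole counts. Whole counts do not exclude shared reads, since fractions can add up to a whole number.

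Genes of nonsense-mediated decay were examined because this pathway removes transcripts with early stop codons. Of smg-1 to smg-9, 9 genes in all, 0 were called by DESeq2 and 0 by edgeR, while 1 had an unadjusted p under 0.05. That gene was smg-1, the kinase of the pathway, with 3797 and 4028 normalized counts in eggd-1 and 5132 and 4463 in the control (log2 fold change -0.29, SE 0.13, DESeq2 adjusted p = 0.0594). Over the 9 genes the median was -0.18. Activity of the pathway was not measured.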

How the data were processed

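Total RNA of whole adults was sequenced in 2 eggd-1 and 2 control libraries. The authors removed ribosomal RNA and made directional libraries. Reads were trimmed (TrimGalore), aligned to WormBase WS279 (STAR) and counted as pairs per gene and strand (featureCounts), with a read that aligned to several loci split among them. What they deposited are expected counts, without normalization and not always whole. Own files of the 4 libraries equalled their table columns, and 7 further value columns matched no sample and were not used.

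Expected counts were rounded, and 25765 rows with at least 1 count were tested by the Wald test of DESeq2 1.42.0 (R 4.3.3) without shrinkage. P-values were adjusted by Benjamini-Hochberg after independent filtering at 0.05. A gene was called at an adjusted p-value under 0.05, and at least 4-fold at a log2 fold change of 2 in size. Normalized counts are rounded counts divided by size factors of 0.905 and 0.818 for eggd-1 and 0.988 and 1.40 for the control. Tests were checked on simulated counts. Alternatives were the edgeR 4.0.16 quasi-likelihood test, other size factors, a filter on low counts, members with whole counts, a replicate block and each library left out. With 2 libraries in each group, p-values rest on dispersion shared across genes. The titles call the libraries sequencing replicates and the authors call them biological replicates. Whether they came from separate cultures is not given, and the p-values measure the spread between these libraries.

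Members named are the 12 with the highest mean counts, the 10 with the largest increases among those called with a mean of at least 20, those called lower and the 10 with the highest mean counts and a family name. Others were named after their values were seen. The members, gene lists and groupings were chosen with earlier results of these data known. Gene positions came from Ensembl 115. Sequences were not used here.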

Additional observations from a re-analysis of the deposited data

How the results depend on the processing

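The 61 members called higher in eggd-1, 40 of them at least 4-fold, became 106 and 61 with edgeR and 34 and 25 among members with whole counts, where the median log2 fold change over those with a count was 1.84. The 4 called lower became 13 with edgeR and 2 among members with whole counts. edgeR tested all 224 members with a count and DESeq2 151, and 79 of those with whole counts, so more or fewer genes were tested. Leaving out each library gave 7 to 30 higher, 7 to 22 at least 4-fold higher and 1 to 2 lower, with medians from 1.47 to 1.68 over members with a count and from 1.02 to 1.29 over those with a mean of at least 10, and here fewer samples were fitted. Other size factors and the filter on low counts gave 59 to 65 higher, 38 to 46 at least 4-fold higher and 4 to 5 lower. Size factors from outside the Spermatogenic class shifted all rows by 0.09 on the log2 scale.

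A fit with the replicate block gave 47 higher, 33 at least 4-fold higher, 4 lower and medians of 1.55 and 1.17, and among the named members it removed the call of rmd-4. Deviations of same-numbered libraries had a correlation of -0.05, so no shared deviation by number was seen. Whether same-numbered libraries were prepared together is not given, and this value cannot show it. Over all alternatives, the 32 named members kept direction and side of the threshold in 263 instances, lost the call in 31, gained it in 2 (R12C12.8 and ferl-1 with edgeR) and changed sign in 6, none of them called. The sign changed for F07H5.4 without eggd-1 replicate 1, for cars-2 and fbxa-121 without eggd-1 replicate 1 or control replicate 2 and for enu-3.4 without control replicate 1. With each library left out, the log2 fold change ran from -0.014 to 0.27 for F07H5.4, from -0.38 to 0.22 for cars-2, from -0.047 to 0.050 for fbxa-121 and from -0.016 to 0.13 for enu-3.4. Except as stated, the cause was not tested. Depth limits the 73 members that DESeq2 left without an adjusted p-value, of which edgeR called 12 higher.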
